A study of Mus musculus with 6 samples.

Results

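The transcripts described here belong to 59 genes named for families of lectin, Fc and pattern receptors. With such receptors macrophages sense microbes, immune complexes, altered lipids and other cells. The genes were chosen by symbol: C-type lectin receptors, Siglecs, Fc receptors, paired immunoglobulin-like receptors (Pirb and the Lilr genes), the CD300, TREM and MS4A families, Toll-like receptors (TLRs), NOD-like receptors without Nlrc5, and the scavenger receptors Msr1, Marco and Cd36. These 59 names are among 16245 gene names in the deposited table and hold 106 of its 33539 transcripts. All 106 are called receptor transcripts below, but a matching symbol does not make each gene a macrophage receptor. Nlrp1c-ps and Nlrp5-ps, for example, are annotated as pseudogenes. The cells were macrophages of the peritoneum, taken from wild-type (WT) animals and from animals with Fbxo38, which encodes an F-box protein of a ubiquitin ligase, deleted in myeloid cells (cKO). Both groups had been treated for 24 h with 20 ng/mL of IL-4 and IL-13, and each group had 3 libraries, from littermates. The sources used here give neither the Cre driver and the deleted exons nor the age and sex of the mice, and no library of unstimulated cells was analysed here.

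C-type lectin receptors bind carbohydrates or lipids on microbes and dying cells, Fc receptors bind antibody, and scavenger receptors take up modified lipoproteins. Many of these surface receptors have no signalling tail of their own and couple to the adaptors encoded by Tyrobp, Hcst or Fcer1g, which carry activating motifs, whereas Pirb, Lilrb4a and several Siglecs carry inhibitory motifs that recruit phosphatases. TLRs signal from the cell surface or the endosome, and NOD-like receptors act in the cytosol, where some of them assemble inflammasomes. IL-4 and IL-13 act through STAT6, and PU.1 is a transcription factor that binds the regulatory regions of many macrophage genes.

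Promoter windows are printed for 5 genes on whose transcripts the results turn. They come from RefSeq on GRCm38.p6, run from 250 bases before to 50 bases after an annotated gene start, 5′ to 3′ on the gene's strand, and were found for 46 of the 59 genes. Capitals mark a match of GAGGAAGT (PU.1 type) or TTCNNNNGAA (STAT6 type), which were searched on both strands and do not overlap in these windows. The windows are Pirb at chr7:3720333-3720632, Tlr1 at chr5:64933509-64933808, Clec4e at chr6:123289822-123290121, Nlrx1 at chr9:44268550-44268849 and Cd36 at chr5:17835847-17836146, all on the minus strand.
Pirb: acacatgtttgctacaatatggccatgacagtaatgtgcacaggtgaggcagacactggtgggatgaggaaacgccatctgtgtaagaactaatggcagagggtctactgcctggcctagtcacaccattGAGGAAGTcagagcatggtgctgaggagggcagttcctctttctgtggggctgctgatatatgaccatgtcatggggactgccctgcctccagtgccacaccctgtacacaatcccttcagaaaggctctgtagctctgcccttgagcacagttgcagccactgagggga
Tlr1: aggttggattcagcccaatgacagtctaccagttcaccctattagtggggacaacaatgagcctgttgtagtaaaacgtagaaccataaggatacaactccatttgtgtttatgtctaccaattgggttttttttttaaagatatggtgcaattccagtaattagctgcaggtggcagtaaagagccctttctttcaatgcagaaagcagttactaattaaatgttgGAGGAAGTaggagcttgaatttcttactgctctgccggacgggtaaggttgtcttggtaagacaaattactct
Clec4e: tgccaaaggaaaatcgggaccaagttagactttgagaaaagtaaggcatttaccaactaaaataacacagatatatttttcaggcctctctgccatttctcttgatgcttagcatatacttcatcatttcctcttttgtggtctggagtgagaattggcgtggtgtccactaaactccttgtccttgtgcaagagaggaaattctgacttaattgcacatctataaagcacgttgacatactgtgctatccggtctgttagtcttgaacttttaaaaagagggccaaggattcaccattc
Nlrx1: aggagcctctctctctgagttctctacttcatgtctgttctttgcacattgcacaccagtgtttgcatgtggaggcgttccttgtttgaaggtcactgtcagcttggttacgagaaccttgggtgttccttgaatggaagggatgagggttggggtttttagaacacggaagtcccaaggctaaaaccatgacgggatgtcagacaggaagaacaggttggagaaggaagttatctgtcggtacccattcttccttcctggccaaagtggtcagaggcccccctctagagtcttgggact
Cd36: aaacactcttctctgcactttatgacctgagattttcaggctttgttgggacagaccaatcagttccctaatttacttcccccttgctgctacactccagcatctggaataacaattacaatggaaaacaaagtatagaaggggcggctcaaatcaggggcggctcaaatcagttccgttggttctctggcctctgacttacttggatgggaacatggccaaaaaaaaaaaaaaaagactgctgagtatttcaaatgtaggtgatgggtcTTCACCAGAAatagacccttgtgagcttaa
The PU.1 type letters were in 4 of the 55 windows of the receptor genes (7.27%), those of Nlrp1b, Pirb, Tlr1 and Tlr11, and in 3.2% of all 32851 windows. The STAT6 type letters were in 7 of the 55 (12.7%), those of Cd36, Clec4b2, Fcer2a, Ms4a6b, Nlrp1b, Nlrp3 and Tlr8, and in 6.95% of all windows. A match is a description of letters and not a binding site. Of the 66 receptor transcripts with both an annotated start and a window, 42 begin within 100 bases of a RefSeq start. All 4 listed Clec4e transcripts and the 1 listed Tlr1 transcript begin within 100 bases of the start in the windows shown. Of the 3 listed Nlrx1 transcripts 1 does so, and the annotated Cd36 transcript begins at position −52905 counted from the start shown.

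Each row of the deposited table is a transcript, and its values are TPM (transcripts per 1000000 transcripts). Every row has an authors' log2 fold change of cKO over WT of at least 1.0001 in size, so each listed transcript was selected on a difference between these same libraries. The listed transcripts made up 2.01% to 6.57% of each library's 1000000 TPM, and the receptor transcripts summed to 27.68 to 60.35 TPM. Other transcripts of the same genes were not analysed here, so a sum over listed transcripts is not the level of a gene. Read depth cannot be taken from TPM and is unknown. Values below are given for WT libraries 1, 2 and 3 and then for cKO libraries 1, 2 and 3, and a value of 0 means listed at 0. Tests used limma on log2(TPM + 1) over all listed transcripts with at least 1 TPM in at least 3 libraries. Nothing in the labels says how animals map to libraries beyond the littermates, so p-values measure the spread between these libraries.

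WT library 2 stood apart, with 6.57% of its TPM in listed transcripts against 2.01% to 3.79% in the others. A list of mesothelial and fibroblast marker genes, 12 of 16 of them listed, summed to 62.43, 506.29 and 149.84 TPM in WT against 19.75, 64.15 and 60.74 TPM in cKO. WT libraries 1 and 2 had the Y-linked gene Eif2s3y at 0 TPM and Xist at 3.83 and 43.77 TPM, whereas the other 4 libraries had Eif2s3y at 35.61 to 51.24 TPM and Xist at 0. Those 4 are WT library 3 and all cKO libraries. A comparison among them therefore rests on 1 WT library and holds no spread within WT. Sums over the listed transcripts of lymphoid and granulocyte markers were low. The highest in any library was 4.22 TPM for B cells (9 of 13 genes listed), 3.59 TPM for T cells (10 of 11) and 1.22 TPM for NK cells (3 of 7). It was 1.12 TPM for neutrophils (2 of 10), 0.56 TPM for mast cells (6 of 8) and 0.21 TPM for eosinophils (1 of 6). Unlisted markers were not analysed here, so nothing follows for how many such cells were present. Of 13 general macrophage markers 7 had listed transcripts. These summed to 383.9, 205.57 and 290.44 TPM in WT against 909.63, 252.96 and 869.37 TPM in cKO, mostly Tyrobp. By the authors' fold change 5 of these 17 transcripts rose and 12 fell, where 60.6% of all listed transcripts fell. Limma tested 5 of them, with 2 higher, of Tyrobp and Spi1, and 3 lower. At an unadjusted limma p under 0.05 there were 2, both lower, of Adgre1 and of Laptm5 (log2 fold change −1.42). Neither passed limma's adjusted threshold. Adgre1 and Spi1, both defining macrophage genes, had listed transcripts above 0 in every library. The limma log2 fold change was −1.09 and −0.22 for the tested Adgre1 transcripts and 0.72 for that of Spi1. Of 10 resident large peritoneal macrophage markers 7 had listed transcripts. Their sums were 4.74, 18.16 and 8.45 TPM in WT against 3.13, 4.23 and 3.61 TPM in cKO. Of those transcripts 8 were higher and 14 lower in the authors' deposited table, 1 at an adjusted p under 0.05. The tested ones, of Gata6 and Rarb, were lower (limma adjusted p = 0.209 for each). For the targeted gene, Fbxo38, 7 transcripts were listed, 3 higher and 4 lower in cKO according to the authors' deposited table, and their summed TPM was 8.79, 11.82 and 12.44 in WT and 6.14, 9.08 and 5.9 in cKO. The sum was above 0 in all cKO libraries, and none of the 7 had an adjusted p under 0.05 in the authors' deposited table.

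The receptor transcripts were mostly scarce: 62 of 106 never reached 0.5 TPM in any library, 27 reached 1 TPM in at least 1 library, and 39 were above 0 in only 1 library. The authors' deposited table has 48 higher in cKO (45.3%, against 39.4% of all listed transcripts) and 58 lower (54.7%, against 60.6%). The authors' deposited table gives an adjusted p under 0.05 to 1 receptor transcript, of Pirb (0.943%, against 0.268% of all listed transcripts), and an unadjusted p under 0.05 to 6 (5.66%, against 6.12%). The groups did not overlap for 11 of the 106 (10.4%, against 10.5% of all listed transcripts), with cKO higher for 4 (against 2.39%) and WT higher for 7 (against 8.11%). These shares lay near those of the whole table.

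Only 7 receptor transcripts, of 6 genes, passed the filter on low values, and 99 did not. None of the 7 passed limma at a Benjamini-Hochberg adjusted p of 0.05, nor did any of the 2050 transcripts tested (0%), with 0.0651 as the lowest adjusted p. Limma gave an unadjusted p under 0.05 to 2 of the 7, Nlrx1 and a Pirb transcript, both lower in cKO, against 23% of all tested transcripts. The groups did not overlap for 3 of the 7, against 37% of all tested transcripts. A transcript that passes the filter through a single group, as Nlrx1 did, cannot overlap between groups. The median log2 fold change of the 7 was 0.67, with 5 above 0 and 2 below, beside a median of −0.39 over all tested transcripts. In bulk RNA a difference of this kind cannot be told apart from a difference in how many cells carry the transcript.

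**Figure D1:**
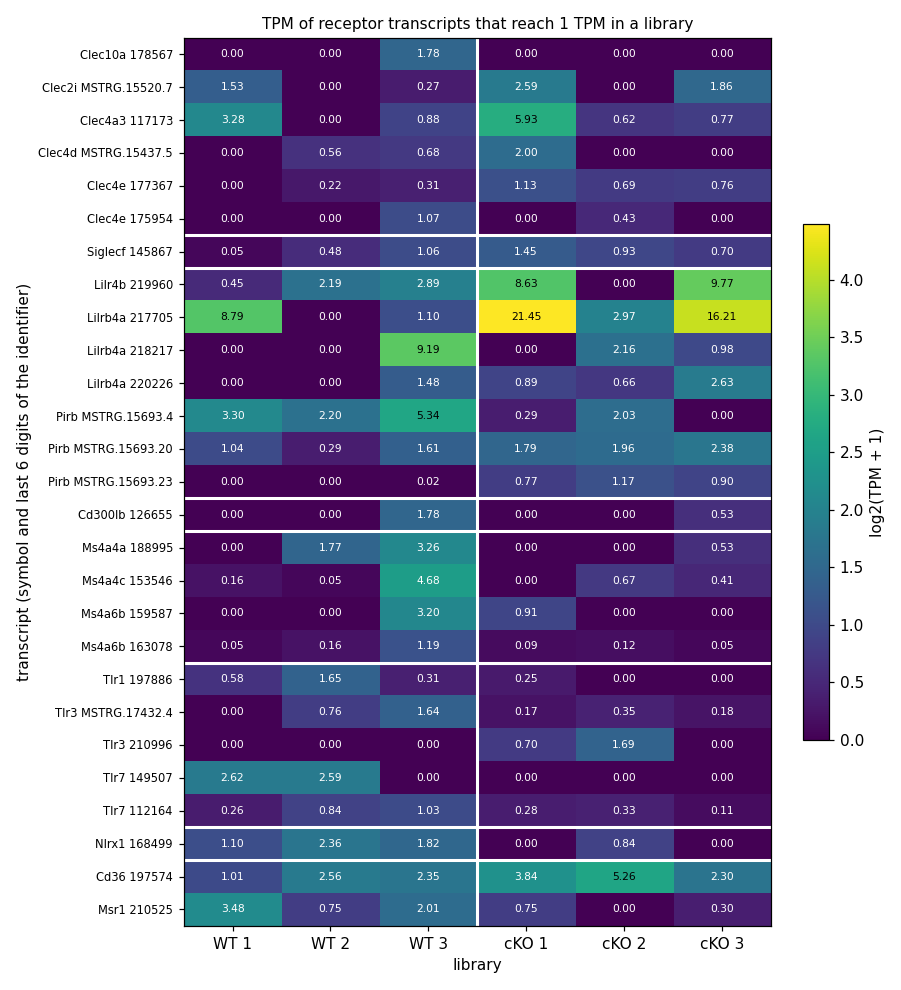
TPM of the 27 receptor transcripts that reached 1 TPM in at least 1 library, 1 row a transcript and 1 column a library, coloured by log2(TPM + 1) with the TPM printed in each cell and white lines between receptor classes and groups. Lilrb4a ENSMUST00000217705, Lilr4b and Clec4a3 have their highest values in cKO libraries 1 or 3, whereas Lilrb4a ENSMUST00000218217 and the Ms4a transcripts are highest in WT library 3.

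**Figure D2:**
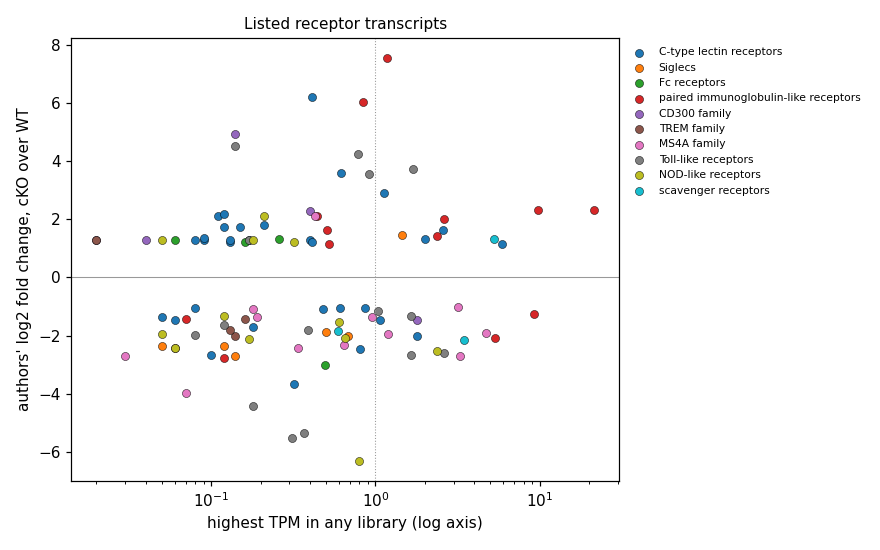
The authors' deposited log2 fold change of cKO over WT for the 106 receptor transcripts (vertical axis) against each transcript's highest TPM in any library (horizontal log axis), coloured by receptor class, with a dotted line at 1 TPM. No point lies between −1 and 1, where the deposited table lists none, and most points lie left of the line.

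The paired immunoglobulin-like receptors had the highest mean summed TPM of the 10 classes, and cKO libraries 1 and 3 held the highest sums. Their 13 transcripts of Pirb, Lilrb4a and Lilr4b summed to 13.72, 5.07 and 22.24 TPM in WT against 34.65, 12.46 and 33.8 TPM in cKO. The groups overlapped, since WT libraries 1 and 3 lay above cKO library 2. The log2 ratio of means was 0.98 (exact two-sided permutation p = 0.3; the smallest p that 3 against 3 libraries allow is 0.1). The log2 ratio was 0.58 without WT library 2, 1.52 without WT library 3, 1.85 after median-ratio scaling and 0.28 among the 4 libraries with Y-linked transcripts. Here and below, median-ratio scaling takes its factors from listed transcripts, all of them selected on a difference between the groups.

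Pirb encodes an inhibitory receptor that binds MHC class I molecules. All 8 of its listed transcripts were assembled by StringTie, 6 of them higher and 2 lower in cKO according to the authors' deposited table. MSTRG.15693.23 rose in that table and was listed at 0, 0 and 0.02 TPM in WT against 0.77, 1.17 and 0.90 TPM in cKO. Its 3 cKO values all lay above the WT values. The authors' deposited table gives it an adjusted p of 7.5e-05 at a log2 fold change of 7.56. It stayed under 1 TPM in 5 of the 6 libraries and so was not tested by the main limma comparison; with no filter limma gave an adjusted p of 0.453 and an unadjusted p of 0.00245 at a log2 fold change of 0.95 ± 0.24 (SE, n = 3 per group). With no filter 7 of the 106 receptor transcripts had an unadjusted limma p under 0.05, against 3.72% of all listed transcripts, and 0 passed adjustment.

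Pirb MSTRG.15693.4 had the opposite order, with 3.30, 2.20 and 5.34 TPM in WT and 0.29, 2.03 and 0 TPM in cKO. Every WT library was above every cKO library, although WT library 2 and cKO library 2 were close. Its limma log2 fold change was −1.49 ± 0.52 (SE, n = 3 per group; unadjusted p = 0.0218, adjusted p = 0.209), and −2.01 among the 4 libraries with Y-linked transcripts. Median-ratio scaling gave −1.02 and put WT library 2 below cKO library 2, so that the groups overlapped.

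Pirb MSTRG.15693.20 was at 1.04, 0.29 and 1.61 TPM in WT against 1.79, 1.96 and 2.38 TPM in cKO. The groups did not overlap, and WT library 2 was the lowest. The limma log2 fold change was 0.67 ± 0.39 (SE; adjusted p = 0.261). It was 0.39 without WT library 2, 0.22 among the 4 libraries with Y-linked transcripts and 1.13 after median-ratio scaling. Summed over the 8 transcripts, Pirb stood at 4.48, 2.88 and 7.51 TPM in WT against 3.68, 6.67 and 4.21 TPM in cKO, which overlapped (exact two-sided permutation p = 0.9). The assembled locus also carries transcripts named Gm15922, and Pirb has near-identical relatives, so the sharing of reads among its transcripts is uncertain.

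Lilrb4a encodes the inhibitory receptor gp49B, and Lilr4b is its near-identical neighbour on chromosome 10. Among several listed coding Lilrb4a transcripts, ENSMUST00000217705 has a coding length of 720 bases, against 1005 for the longest of the gene. It was at 8.79, 0 and 1.10 TPM in WT against 21.45, 2.97 and 16.21 TPM in cKO. The highest values were in cKO libraries 1 and 3, and WT library 1 lay above cKO library 2. Its limma log2 fold change was 2.07 ± 0.98 (SE, n = 3 per group; adjusted p = 0.209), and 1.35 without WT library 2, where it was listed at 0. The retained-intron Lilrb4a transcript ENSMUST00000218217 was at 0, 0 and 9.19 TPM in WT against 0, 2.16 and 0.98 TPM in cKO, so that WT library 3 alone carried it at a high level.

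Lilr4b ENSMUST00000219960, annotated as a target of nonsense-mediated decay, was at 0.45, 2.19 and 2.89 TPM in WT against 8.63, 0 and 9.77 TPM in cKO. Again cKO libraries 1 and 3 were high and the groups overlapped, with a limma log2 fold change of 0.84 ± 0.93 (SE; adjusted p = 0.441). That value was 0.41 without WT library 1, 0.32 without cKO library 1, 1.96 without cKO library 2, 0.24 without cKO library 3 and 0.27 among the 4 libraries with Y-linked transcripts, and 1.60 after median-ratio scaling. The 5 listed transcripts of both genes summed to 9.24, 2.19 and 14.73 TPM in WT against 30.97, 5.79 and 29.59 TPM in cKO (exact two-sided permutation p = 0.3). Reads may be split between these neighbours, so each of their values is uncertain.

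**Figure D3:**
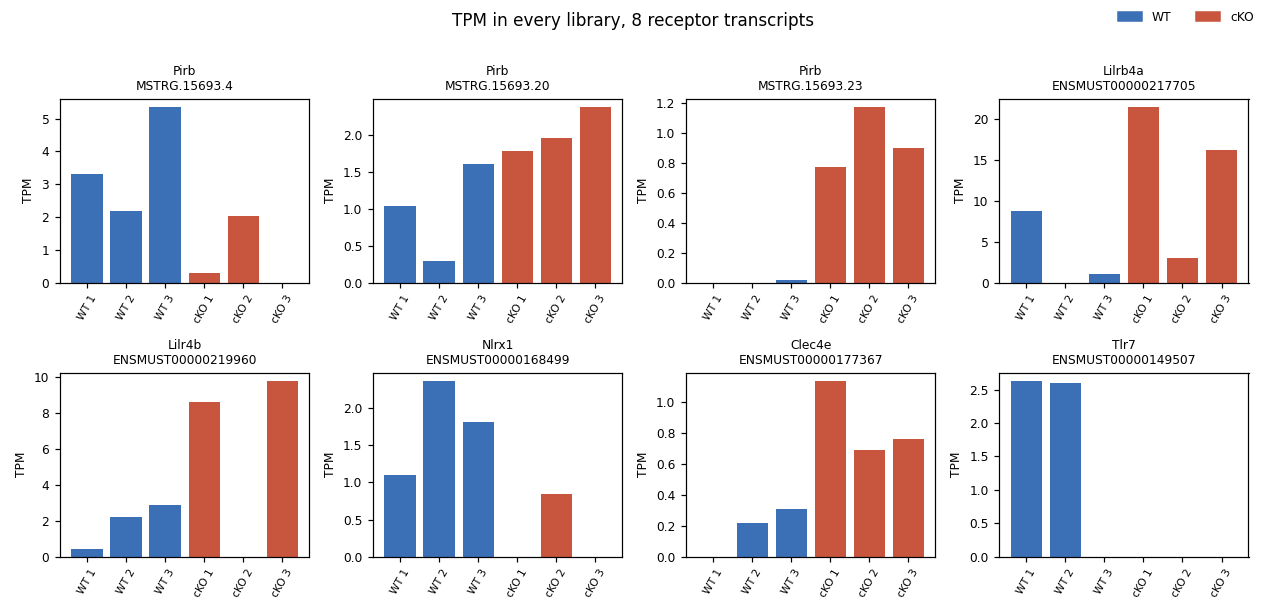
TPM of 8 receptor transcripts in each of the 6 libraries, 1 bar a library, blue for WT and red for cKO, with axes that start at 0 and differ in scale. The Pirb transcripts MSTRG.15693.4 and MSTRG.15693.23 have opposite orders, and the Tlr7 transcript is above 0 in WT libraries 1 and 2 alone.

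Among C-type lectin receptors 31 transcripts of 17 genes were listed, 19 higher and 12 lower in cKO according to the authors' deposited table (61.3% higher, against 39.4% of all listed transcripts). None had an adjusted p under 0.05 there. Their sum was 5.98, 2.88 and 7.78 TPM in WT and 13.8, 3.91 and 5.24 TPM in cKO, with cKO library 1 highest and the groups overlapping (log2 ratio 0.46, exact two-sided permutation p = 0.7). The log2 ratio was −0.28 without cKO library 1, 0.15 without WT library 2, 0.79 without WT library 3 and 1.40 after median-ratio scaling.

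Clec4e encodes Mincle, a receptor for mycobacterial glycolipid. Its coding transcript ENSMUST00000177367 was at 0, 0.22 and 0.31 TPM in WT against 1.13, 0.69 and 0.76 TPM in cKO. All cKO libraries were above all WT libraries, at levels too low for the filter. The authors' deposited table gives a log2 fold change of 2.92 and an unadjusted p of 0.0704. The other 3 Clec4e transcripts overlapped between groups; the highest, ENSMUST00000175954, reached 1.07 TPM in WT library 3. Of the 4 Clec4e transcripts 2 were higher and 2 lower in the authors' deposited table.

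Clec4n, which encodes a receptor for fungal mannans, had ENSMUST00000112554 at 0, 0.15 and 0 TPM in WT against 0.33, 0.30 and 0.62 TPM in cKO. Here too the groups did not overlap, and no library reached 1 TPM. Clec4d, which encodes a lectin that pairs with Mincle, had its assembled transcript MSTRG.15437.5 at 0, 0.56 and 0.68 TPM in WT against 2.00, 0 and 0 TPM in cKO. That transcript was above 0 in only 1 cKO library. Clec4a3, of the same gene cluster, had its coding transcript at 3.28, 0 and 0.88 TPM in WT against 5.93, 0.62 and 0.77 TPM in cKO. Library 1 was the highest in each group and the groups overlapped. The 10 listed transcripts of these genes with their neighbours Clec4a2 and Clec4b2, which form the Dectin-2 gene cluster, summed to 3.43, 1 and 4.01 TPM in WT against 9.68, 2.76 and 2.77 TPM in cKO (exact two-sided permutation p = 0.6), with cKO library 1 apart from the rest.

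The only lectin transcript that passed the filter was MSTRG.15520.7 of Clec2i, which encodes a ligand of NK cell receptors, at 1.53, 0 and 0.27 TPM in WT against 2.59, 0 and 1.86 TPM in cKO. Library 2 was at 0 in both groups, and the limma log2 fold change was 0.56 ± 0.57 (SE; adjusted p = 0.415). The value was 0.95 without WT library 1, 0.28 without WT library 2, 0.20 without cKO library 1, 1.12 without cKO library 2 and 0.36 without cKO library 3, and 0.84 after median-ratio scaling. Clec10a, which encodes a galactose-type lectin used as a marker of alternative activation, had 4 listed transcripts, 2 higher and 2 lower in the authors' deposited table. Among them ENSMUST00000178567 was above 0 only in WT library 3, at 1.78 TPM. The 1 listed transcript of Clec12a, an inhibitory lectin receptor gene, is a retained-intron form that never exceeded 0.08 TPM.

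Of the Siglecs, which bind sialic acid, 6 transcripts of 4 genes were listed, 1 higher and 5 lower in cKO according to the authors' deposited table (83.3% lower, against 60.6% of all listed transcripts). Siglec1 encodes sialoadhesin, and its coding transcript ENSMUST00000110227 was at 0.11, 0.68 and 0.34 TPM in WT against 0.10, 0.03 and 0.07 TPM in cKO. The groups did not overlap, but WT library 1 was within 0.01 TPM of cKO library 1. Both listed Siglec1 transcripts together were at 0.16, 1.18 and 0.74 TPM in WT against 0.13, 0.08 and 0.17 TPM in cKO, and there WT library 1 lay below cKO library 3.

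Siglece, an inhibitory Siglec gene, had values that did not overlap, 0.06, 0.05 and 0.14 TPM in WT and 0, 0.03 and 0 TPM in cKO. The retained-intron Siglecf transcript ENSMUST00000145867 was at 0.05, 0.48 and 1.06 TPM in WT against 1.45, 0.93 and 0.70 TPM in cKO, which overlapped. The class sum was 0.27, 1.88 and 1.94 TPM in WT and 1.58, 1.04 and 0.87 TPM in cKO (log2 ratio −0.23, exact two-sided permutation p = 0.8), with WT library 1 lowest. Its log2 ratio was 0.07 without WT library 2, 0.11 without WT library 3 and 1.14 after median-ratio scaling, each in the opposite direction.

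Fc receptors were nearly absent from the list: 4 transcripts of 3 of the 8 annotated genes. No library held more than 0.59 TPM of them in all. Fcgr2b, which encodes the inhibitory IgG receptor, had 1 listed transcript, at 0.10 TPM in WT library 3 and 0.16 TPM in cKO library 3 and at 0 elsewhere. The IgE receptor genes Fcer1a and Fcer2a, the latter encoding CD23, stayed at or under 0.49 TPM and 0.06 TPM.

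The CD300 and TREM families were likewise scarce, with 5 and 4 listed transcripts. Cd300lb ENSMUST00000126655, of an activating receptor gene, was at 1.78 TPM in WT library 3 and 0.53 TPM in cKO library 3 and at 0 elsewhere. Cd300c was at 0.11, 0.10 and 0 TPM in WT against 0.40, 0 and 0.29 TPM in cKO, and Cd300lg reached 0.14 TPM in cKO library 3. Trem1, an amplifier of inflammatory signals, was above 0 only in cKO library 3, at 0.02 TPM. Treml4, Treml1 and Treml2 were each above 0 in a single WT library, at 0.13, 0.14 and 0.16 TPM.

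Of 13 listed transcripts of the MS4A family, membrane proteins that cross the membrane several times, 12 were lower and 1 higher in cKO in the authors' deposited table (92.3% lower, against 60.6% of all listed transcripts). None had an adjusted p under 0.05 there, none passed the filter, and for none did the groups separate. The sum was 0.35, 3.04 and 14.43 TPM in WT and 1.28, 1.22 and 1.2 TPM in cKO. WT library 3 was far above the rest and WT library 1 was below every cKO library. The log2 ratio was −2.27 (exact two-sided permutation p = 0.4), and −0.46 without WT library 3, in which 10 of the 13 transcripts had their highest value. It was −1.10 after median-ratio scaling. Among the 4 libraries with Y-linked transcripts, where WT library 3 is the only WT library, it was −3.55.

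Ms4a4a, whose human counterpart is expressed by alternatively activated macrophages, had its only annotated transcript at 0, 1.77 and 3.26 TPM in WT against 0, 0 and 0.53 TPM in cKO. Ms4a4c was at 0.16, 0.05 and 4.68 TPM in WT against 0, 0.67 and 0.41 TPM in cKO. Ms4a6b ENSMUST00000159587 was at 0, 0 and 3.20 TPM in WT against 0.91, 0 and 0 TPM in cKO. In these 3 genes WT library 3 was the highest and the groups overlapped. The listed transcripts of Ms4a6d stayed at or under 0.43 TPM. In the same library the sums of T cell, B cell, NK cell, dendritic cell and small peritoneal macrophage or monocyte markers were also the highest of the 6, the last at 1.81, 6.02 and 8.55 TPM in WT and 0.59, 1.80 and 1.00 TPM in cKO; the part of those cells in the MS4A values was not tested.

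TLR transcripts numbered 15, from 7 genes, 5 higher and 10 lower in cKO according to the authors' deposited table (66.7% lower, against 60.6% of all listed transcripts). Their sum was 4.63, 5.96 and 3.36 TPM in WT and 1.54, 2.58 and 2.02 TPM in cKO. Every WT library was above every cKO library, with means of 4.65 ± 1.30 and 2.05 ± 0.521 TPM (SD, n = 3 per group). The log2 ratio was −1.18 and the exact two-sided permutation p was 0.1, the smallest that 3 against 3 libraries allow. After median-ratio scaling, which shifted the median log2 fold change of all tested transcripts by 0.61, the log2 ratio was −0.28 (exact permutation p = 1). Among the 4 libraries with Y-linked transcripts it was −0.72.

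A single noncoding transcript of the X-linked gene Tlr7, a receptor for single-stranded RNA, held much of that difference. ENSMUST00000149507 was at 2.62, 2.59 and 0 TPM in WT against 0 in all 3 cKO libraries. It was thus listed above 0 in the same pair of libraries that lacked Y-linked transcripts. Without it the TLR sum was 2.01, 3.37 and 3.36 TPM in WT and 1.54, 2.58 and 2.02 TPM in cKO, which overlapped (log2 ratio −0.51, exact two-sided permutation p = 0.3). The main coding Tlr7 transcript, ENSMUST00000112164, was at 0.26, 0.84 and 1.03 TPM in WT against 0.28, 0.33 and 0.11 TPM in cKO, with WT library 1 within the cKO range. Tlr8, an X-linked gene as well, was above 0 only in WT library 1, at 0.37 TPM. Without Tlr7 and Tlr8 the TLR sum was 1.38, 2.53 and 2.33 TPM in WT against 1.26, 2.25 and 1.91 TPM in cKO. Its log2 ratio was then −0.20 (exact two-sided permutation p = 0.5).

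Tlr1 encodes a partner of TLR2 in sensing lipopeptides. Its listed transcript is a processed form without a coding sequence and was at 0.58, 1.65 and 0.31 TPM in WT against 0.25, 0 and 0 TPM in cKO. The groups did not overlap, and WT library 3 lay just above cKO library 1. Tlr3, a receptor for double-stranded RNA, had 6 listed transcripts, 3 in each direction in the authors' deposited table. MSTRG.17432.4 of Tlr3 was at 0, 0.76 and 1.64 TPM in WT against 0.17, 0.35 and 0.18 TPM in cKO, while ENSMUST00000210996 was at 0 in WT against 0.70, 1.69 and 0 TPM in cKO. The 6 Tlr3 transcripts summed to 0.31, 0.76 and 1.94 TPM in WT against 0.87, 2.04 and 1.88 TPM in cKO. These groups overlapped, with cKO higher by its mean (log2 ratio 0.67, exact two-sided permutation p = 0.3). All 3 listed transcripts of Tlr5, the flagellin receptor gene, were lower in the authors' deposited table.

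For NOD-like receptors 12 transcripts of 7 genes were listed, none with an adjusted p under 0.05 in the authors' deposited table. There 4 were higher and 8 lower in cKO (66.7% lower, against 60.6% of all listed transcripts). Their sum was 1.55, 4.68 and 2.98 TPM in WT and 0.37, 1.73 and 0.29 TPM in cKO. Only cKO library 2 reached into the WT range (log2 ratio −1.95, exact two-sided permutation p = 0.2). The log2 ratio was −3.22 without cKO library 2 and −0.92 after median-ratio scaling. Nlrx1, which encodes a mitochondrial member of the family that dampens antiviral signalling, accounted for much of it, and without Nlrx1 the log2 ratio was −1.22 (exact permutation p = 0.2).

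The principal coding Nlrx1 transcript, ENSMUST00000168499, was at 1.10, 2.36 and 1.82 TPM in WT against 0, 0.84 and 0 TPM in cKO. All WT libraries were above all cKO libraries, of which 2 were at 0. The transcript passed the filter only through the WT libraries, so this order was fixed by the filter. Its limma log2 fold change was −1.14 ± 0.38 (SE, n = 3 per group; unadjusted p = 0.0179, adjusted p = 0.209). Leaving out each library in turn gave −1.44 to −0.99, and the 4 libraries with Y-linked transcripts gave −1.20. Under median-ratio scaling the transcript no longer passed the filter, and WT library 2 fell below cKO library 2. A second Nlrx1 transcript, ENSMUST00000169651, was above 0 only in WT library 2, at 0.80 TPM. All 3 listed Nlrx1 transcripts together were at 1.10, 3.16 and 1.82 TPM in WT against 0, 1.05 and 0 TPM in cKO, which did not overlap, although WT library 1 was close to cKO library 2.

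Nlrp1b, which encodes the sensor of anthrax lethal factor, was at 0.27, 0.60 and 0.35 TPM in WT against 0.19, 0.07 and 0.04 TPM in cKO. These groups did not overlap, at levels under 1 TPM. The coding transcripts of the inflammasome sensor gene Nlrp3 were at 0, 0.65 and 0.37 TPM in WT and 0.15, 0 and 0 TPM in cKO for ENSMUST00000101148, and at 0.13, 0 and 0.12 TPM in WT and 0, 0.32 and 0.19 TPM in cKO for ENSMUST00000079476. The first was higher in WT by its mean and the second in cKO, with overlap in each. Nlrc4, which acts with the NAIP proteins, had 2 listed transcripts, neither above 0.06 TPM.

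The scavenger receptors had 3 listed transcripts. Cd36 encodes a receptor for oxidised lipoproteins and fatty acids that is known to respond to IL-4. Its transcript ENSMUST00000197574, annotated with an incomplete end, was at 1.01, 2.56 and 2.35 TPM in WT against 3.84, 5.26 and 2.30 TPM in cKO. The 2 highest values were in cKO, and cKO library 3 lay within the WT range. The limma log2 fold change was 0.69 ± 0.46 (SE, n = 3 per group; adjusted p = 0.303). It was 0.43 without WT library 1 and 1.43 after median-ratio scaling (limma adjusted p = 0.0985). The assembled Cd36 transcript MSTRG.13259.1 had the other order without overlap, 0.28, 0.53 and 0.59 TPM in WT and 0.24, 0 and 0 TPM in cKO.

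Msr1, which encodes the class A scavenger receptor, had a coding transcript with an incomplete end at 3.48, 0.75 and 2.01 TPM in WT against 0.75, 0 and 0.30 TPM in cKO. WT library 2 and cKO library 1 had the same value, and the others were ordered WT above cKO. With no filter limma gave an unadjusted p of 0.0262 and an adjusted p of 0.453. The class sum was 4.77, 3.84 and 4.95 TPM in WT and 4.83, 5.26 and 2.6 TPM in cKO, with a log2 ratio of −0.10 (exact two-sided permutation p = 0.9). That ratio was 0.16 without cKO library 3 and 0.76 after median-ratio scaling, both in the opposite direction.

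**Figure D4:**
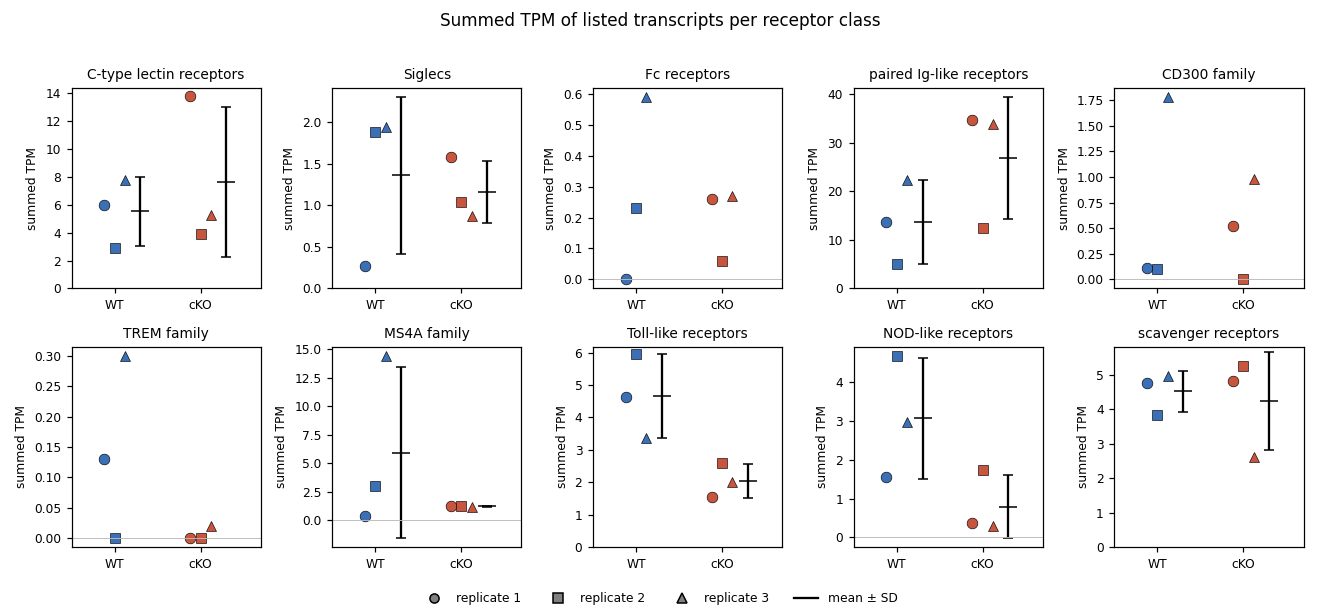
Summed TPM of the listed transcripts of each of the 10 receptor classes, 1 point a library, with circles, squares and triangles for replicates 1, 2 and 3, and bars for the mean ± SD where no library was at 0; the vertical scales differ. WT and cKO points separate for the Toll-like receptors alone, at 3.36 to 5.96 TPM against 1.54 to 2.58 TPM.

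Among the adaptor and signalling genes of these receptors, Tyrobp, which encodes the adaptor DAP12, was at 364.81, 175.35 and 252.44 TPM in WT against 895.84, 224.44 and 848.37 TPM in cKO. Its highest values were in cKO libraries 1 and 3, and cKO library 2 lay within the WT range (limma log2 fold change 1.13 ± 0.71 SE, n = 3 per group, adjusted p = 0.287). Hcst, which encodes the adaptor DAP10, was at 7.70, 8.53 and 7.83 TPM in WT against 14.46, 7.39 and 15.98 TPM in cKO, high in cKO libraries 1 and 3, as were Lilrb4a and Lilr4b.

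Of 36 genes of the signalling pathways that follow activating and inhibitory motifs, 28 had 68 listed transcripts, 22 higher and 46 lower in the authors' deposited table. Of the 6 tested, 0 passed limma's adjusted threshold and 1 had an unadjusted p under 0.05, a transcript of Lat2 (higher, against 6.1% of all tested transcripts). Of 45 genes of TLR signalling 38 had 103 listed transcripts, 40 higher and 63 lower in the authors' deposited table. Of the 9 tested, 0 passed limma's adjusted threshold. At an unadjusted p under 0.05, 1 of Cnpy3 was higher and 1 of Tnfaip3 was lower (against 6.1% and 16.9% of all tested transcripts). Another tested Tnfaip3 transcript, MSTRG.1444.2, had the opposite direction, with a limma log2 fold change of 0.70 (unadjusted p = 0.139).

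The Cnpy3 transcript belongs to a gene encoding a chaperone that TLRs need to reach the cell surface and endosome. It was at 0.26, 0.26 and 0 TPM in WT against 2.49, 2.38 and 1.82 TPM in cKO. The groups were well apart, but the transcript passed the filter only through the cKO libraries, so their order was fixed by the filter. The limma log2 fold change was 1.46 ± 0.31 (SE, n = 3 per group; adjusted p = 0.137). For cytosolic sensors and inflammasome genes 22 of 30 had 38 listed transcripts, 14 higher and 24 lower in the authors' deposited table. The 1 tested there, of the adaptor gene Pycard, did not pass.

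Of 41 other scavenger and lectin receptor names 22 had 51 listed transcripts, 19 higher and 32 lower in the authors' deposited table, and 0 of 9 tested passed limma's adjusted threshold. A transcript of Cd47, whose protein restrains phagocytosis, was at 1.05, 0.09 and 0 TPM in WT against 2.31, 3.35 and 12.21 TPM in cKO. All cKO values were above all WT values, with cKO library 3 highest (limma log2 fold change 2.14 ± 0.60 SE, adjusted p = 0.209). Of the transcripts of these 4 lists 0 had an adjusted p under 0.05 in the authors' deposited table. Their counts by direction were not tested against the 60.6% of all listed transcripts that were lower.

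The receptor transcripts also differed in kind. Of the 106, 17 (16%) were assembled by StringTie, against 5.02% of all listed transcripts, and 8 of the 17 were of Pirb. Of the other 89, all found in GENCODE M21, 62 (69.7%) were protein coding, against 42% of all listed annotated transcripts, and 12 (13.5%) were retained-intron forms, against 24.3%. The principal isoform by APPRIS was listed for 24 of the 89 (27%, against 16.1%). These shares describe what the deposited table holds and were not tested.

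Of the 59 genes 27 had more than 1 listed transcript, and 15 of these 27 (55.6%, against 65.7% of all such genes) had both higher and lower ones in the authors' deposited table. Cd36, Lilrb4a, Nlrp3, Nlrx1, Pirb, Siglecf and Tlr3 were among the 15. The highest library differed from that of the table as a whole: WT library 3 was highest for 31 receptor transcripts (29.2%, against 15.1% of all listed transcripts), and WT library 2 for 19 (17.9%, against 37.6%).

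Of 52 receptor names picked for description 22 had no listed transcript and were not analysed here: Clec7a, Clec4a1, Fcgr1, Fcgr3, Fcgr4, Fcgrt, Fcer1g, Pira2, Lilra5, Cd300a, Cd300lf, Cd300ld, Trem2, Ms4a1, Ms4a6c, Ms4a7, Tlr2, Tlr4, Tlr6, Tlr9, Tlr13 and Marco. A gene enters the table only through a transcript with a large authors' fold change, so nothing follows for the level of these 22.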

How the data were processed

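RNA was measured in 6 libraries, 3 WT and 3 cKO. Per the labels' protocols, poly(A) RNA was made into stranded paired-end libraries, and fastp trimmed the reads, HISAT2 aligned them and StringTie assembled transcripts on a reference. Per the submitters' processing notes, which give no versions, RSEM and DESeq2 were also used. The genome build is not given in the sources used here. The authors deposited TPM per library and transcript, and for cKO over WT the fold change (a ratio), the log2 fold change and the p-value before and after adjustment. No deposited log2 fold change is smaller in size than 1.0001. It holds 3 transcripts of Nlrc5, which were left out, and a small second sheet was not used.

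Transcripts with at least 1 TPM in at least 3 of the 6 libraries (2050) were compared on log2(TPM + 1) with limma 3.58.1 in R 4.3.3. The variance followed a trend on the mean, group was the only term, tests were two-sided, and p-values were adjusted by Benjamini-Hochberg at 0.05 over all tested transcripts. For low transcripts this scale gives too small a fold change. Because the table was selected on the difference between these libraries, its p-values are smaller than in an unselected table. Median-ratio scaling took its factors (0.571 for cKO library 1 to 2.71 for WT library 2) from listed transcripts above 0 in every library. Those were selected on that difference too, so the factors do not come from unchanged transcripts. Sums were compared with exact two-sided permutation tests over libraries. TPM keeps no depth, so no counting interval is given. The limma step was tested on simulated data. Python 3.11.15, pandas 2.3.3, numpy 2.4.6, scipy 1.17.1 and matplotlib 3.10.9 were used.

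Members and gene lists were chosen with earlier results of these data known. Named were 52 chosen receptor names, the 3 transcripts of each class with the highest mean TPM, and tested transcripts at an unadjusted p under 0.05, without overlap at 2 TPM or called in the authors' table. Transcript classes came from GENCODE M21, which held all 89 reference identifiers, and promoters from RefSeq on GRCm38.p6. Protein sequences were not used here. Alternatives were other filters, pseudocounts and scalings, a replicate block, leaving out each library, and the 4 libraries with Y-linked transcripts. The last of these sets WT library 3 alone against all cKO libraries.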

Additional observations from a re-analysis of the deposited data

How the results depend on the processing

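No receptor transcript passed limma's adjusted threshold under any setting run. Against 2 transcripts at an unadjusted p under 0.05, there were 7 with no filter, 1 with a stricter filter of 2 TPM, 0 among the libraries with Y-linked transcripts, and 0 to 4 when 1 library was left out. The count was 0 without cKO library 1 or cKO library 3, 1 without WT library 3 and 4 without cKO library 2. Against a median log2 fold change of 0.67, values were 0.99 under median-ratio scaling, 0.91 under quantile normalization, 0.94 with a pseudocount of 0.1, −0.028 with no filter, 0.27 among the libraries with Y-linked transcripts and 0.32 to 0.80 with 1 library left out. Groups did not overlap for 3 tested transcripts, 11 with no filter and 1 with the stricter filter.

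The log2 ratio of class sums changed direction for C-type lectins (−0.28 to 0.79 with 1 library left out, −0.024 among the libraries with Y-linked transcripts), Siglecs (−0.72 to 0.11; 1.14 under median-ratio scaling, 0.15 on the authors' scale), Fc receptors (−1.06 to 0.77; 0.89), the CD300 family (−1.35 to 2.25; 0.72) and scavenger receptors (−0.28 to 0.16; 0.76 and 0.29). The library whose absence turned the sign was cKO 1 for C-type lectins, WT 2 or WT 3 for Siglecs, WT 3 for Fc receptors, WT 3 or cKO 2 for the CD300 family and cKO 3 for scavenger receptors. For sums, the scalings and the libraries with Y-linked transcripts were chosen after seeing the data. The cause of these changes was not tested. Of 214 alternatives for the 27 single transcripts, 7 had the opposite sign, each with 1 library left out. All 7 were of transcripts outside the filter, for which leaving out a library was the only alternative run. Without WT library 3 the log2 ratio of mean TPM + 1 was 1.03 for Lilrb4a ENSMUST00000218217, 0.23 for Cd300lb, 0.30 for Ms4a4c, 0.38 for Ms4a6b ENSMUST00000159587 and 0.19 for Clec4e ENSMUST00000175954, all negative with every library. Without cKO library 1 it was −0.49 for Clec4a3 and −0.50 for Clec4d, both positive with every library.

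Deviations of same-numbered libraries correlated at 0.135, −0.137 and −0.109, and those of other WT and cKO pairs at −0.188 to 0.232. With 3 libraries per group these values cannot show whether the replicate numbers pair littermates. With the replicate block, 0 receptor transcripts passed the adjusted threshold and 3 had an unadjusted p under 0.05. TPM keeps no depth, and values under 1 TPM, which most receptor transcripts have, cannot be given a counting error.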
